A study of Mus musculus with 6 samples.

Results

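Aminoacyl-tRNA synthetases are the enzymes that join each amino acid to its transfer RNA, and their genes were followed here in mouse embryonic stem cells (ESCs) kept in 2 media. Genes were chosen by symbol: a letter for the amino acid followed by "ars", with or without an ending number, together with Eprs, Farsa and Farsb. This gave 37 genes of the 53927 symbols in the files, of which 20 are cytosolic and 17, with the ending 2, are mitochondrial. All 37 passed the filter on low counts, so no member is missing from the test of 20422 genes. The members lie on 15 chromosomes, and 0 lie on X or Y. Each sample is an RNA-seq library of total RNA after ribosomal RNA depletion, with 3 libraries per medium. Both media were N2B27, which holds no serum, with 1 µM PD0325901, a MEK inhibitor. The BRD0705/PD03 medium added 8 µM BRD0705, which blocks GSK3 alpha selectively, and the 2i medium added 3 µM CHIR99021, which blocks GSK3 alpha and GSK3 beta. The labels give the genotype WT and the line E14, whereas the growth protocol speaks of B6D2F1 ESCs derived on feeder cells in each medium, so a difference in origin and an effect of the medium cannot be told apart. The comparison asks how transcripts of these enzymes differ between cells under GSK3 alpha inhibition and cells in 2i.

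In background, every synthetase recognises its amino acid and the matching tRNAs, and the charged tRNA then enters the ribosome. Cytosol and mitochondria use separate enzymes for most amino acids, all encoded in the nucleus, and the mitochondrial ones serve the few proteins made from mitochondrial DNA. Gars and Kars each give both the cytosolic and the mitochondrial enzyme from a single gene, and Qars has no mitochondrial counterpart. Several cytosolic enzymes sit together in the multisynthetase complex, held by the scaffold proteins Aimp1, Aimp2 and Eef1e1. When amino acids run short, the transcription factor ATF4 binds short elements called CARE in the promoters of many amino acid genes, cytosolic synthetases among them.

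RefSeq promoters of GRCm38.p6, from 250 bases before to 50 after the annotated start, were matched by symbol for 27 of the 37 members. Only the first promoter listed for each member was searched. Those of Gars and Tars are printed because they hold the CARE letters, and those of Wars2 and Vars2 because these mitochondrial genes differed most between the media. Capitals mark TGATGNAA (the CARE letters), CACGTG (the E-box read by MYC) and CCGGAAG (read by ETS factors), each searched on both strands.
Gars (chr6:55037751-55038050, plus strand): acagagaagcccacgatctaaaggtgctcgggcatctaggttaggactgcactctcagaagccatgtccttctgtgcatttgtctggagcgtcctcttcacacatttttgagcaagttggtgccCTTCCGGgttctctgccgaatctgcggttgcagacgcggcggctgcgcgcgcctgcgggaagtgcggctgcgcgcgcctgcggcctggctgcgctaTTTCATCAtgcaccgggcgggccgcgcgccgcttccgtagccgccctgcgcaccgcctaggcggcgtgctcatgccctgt
Tars (chr15:11399609-11399908, minus strand): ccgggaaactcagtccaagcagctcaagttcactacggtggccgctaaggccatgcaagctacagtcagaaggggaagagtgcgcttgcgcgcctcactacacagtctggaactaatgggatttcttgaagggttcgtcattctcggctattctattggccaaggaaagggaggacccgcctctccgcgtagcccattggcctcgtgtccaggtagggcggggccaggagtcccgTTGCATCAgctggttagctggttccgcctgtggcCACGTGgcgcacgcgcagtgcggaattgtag
Wars2 (chr3:99140840-99141139, plus strand): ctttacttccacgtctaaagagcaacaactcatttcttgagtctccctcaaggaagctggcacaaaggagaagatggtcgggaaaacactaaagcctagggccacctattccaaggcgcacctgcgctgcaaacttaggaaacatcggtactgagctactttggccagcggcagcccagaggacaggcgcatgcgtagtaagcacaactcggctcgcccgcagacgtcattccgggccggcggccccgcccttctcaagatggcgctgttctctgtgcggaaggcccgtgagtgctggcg
Vars2 (chr17:35667543-35667842, minus strand): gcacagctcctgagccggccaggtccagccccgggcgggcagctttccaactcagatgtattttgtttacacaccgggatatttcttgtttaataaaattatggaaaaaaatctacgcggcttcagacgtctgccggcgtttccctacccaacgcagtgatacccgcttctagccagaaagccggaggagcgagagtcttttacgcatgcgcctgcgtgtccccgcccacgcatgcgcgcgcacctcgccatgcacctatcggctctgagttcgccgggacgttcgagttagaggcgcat
CARE letters stood in 5 of 13 cytosolic promoters (38.5%), those of Aars, Gars, Iars, Tars and Yars, and in 0 of 14 mitochondrial promoters. Of all 32851 promoters of 300 bases, 3.97% held them. A match is a run of letters and not a site shown to be bound. None of the 3 letter strings occurred in the Wars2 or Vars2 promoter. The ETS letters stood in 9 of 27 members' promoters (33.3%, against 8.86% of all) and the E-box in 5 (18.5% against 7.15%). The shares of all promoters take in every listed promoter, so a gene can count more than once. They are not matched to the members for expression or GC content, so the shares do not show a trait particular to synthetases.

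Synthetase transcripts differed little between the media. In BRD0705/PD03, 13 of the 37 genes were higher and 11 lower at an adjusted p under 0.05 in edgeR's quasi-likelihood test, where 61.4% of all genes tested were called (30.1% higher and 31.4% lower). The median log2 fold change of BRD0705/PD03 over 2i was 0.01, with 0.00 over all genes tested. Differences were small: the median size of the log2 fold change was 0.18 for members, 0.40 for all genes tested and 0.31 for the 11488 genes that averaged 5 CPM or more, of which 72.5% were called (33.5% higher and 38.9% lower). CPM is a gene's count as a share of its library's total, after scaling between libraries. Only Wars2 and Vars2 were called with a difference of 1.5-fold or more, which 34.6% of all genes were, and 0 of 37 reached 2-fold, which 21.2% did. The groups did not overlap for 24 members, compared with 66.0% of all genes. Among the 11488 genes averaging 5 CPM or more, groups did not overlap for 8737, and 3246 were called at 1.5-fold or more. Of the same 11488, 751 were called higher and 866 lower at 2-fold or more. With upper-quartile scaling the split of the members' calls became 16 higher and 7 lower.

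Most mitochondrial genes that were called were higher and, with the scaling used here, most cytosolic ones lower. Of the 20 cytosolic genes 3 were higher (15%) and 9 lower (45%), with a median of -0.07. That split became 6 and 6 with upper-quartile scaling. Of the 17 mitochondrial genes 10 were higher (58.8%) and 2 lower (11.8%), with a median of 0.19, and 10 and 1 with upper-quartile scaling. Over all genes tested, 30.1% were called higher and 31.4% lower. For genes averaging 5 CPM or more the shares were 33.5% and 38.9%, so the cytosolic share called lower was not far above that of these genes. The difference between the cytosolic and the mitochondrial set was not tested as such. A measure that needs no scaling between libraries is the mitochondrial genes' share of all synthetase counts. That share, in percent, was 8.82, 8.47 and 8.69 in BRD0705/PD03 and 7.72, 7.67 and 7.91 in 2i. Every BRD0705/PD03 library thus lay above every 2i library. Without Wars2 and Vars2 the share was 8.33, 8.04 and 8.25 in BRD0705/PD03 and 7.08, 7.03 and 7.18 in 2i, again with no overlap. In summed level, the cytosolic genes took 5729 to 6131 CPM in BRD0705/PD03 and 5937 to 6250.3 CPM in 2i, ranges that overlap, and the mitochondrial genes 554 to 570.5 and 509.8 to 523 CPM, which do not.

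**Figure D1:**
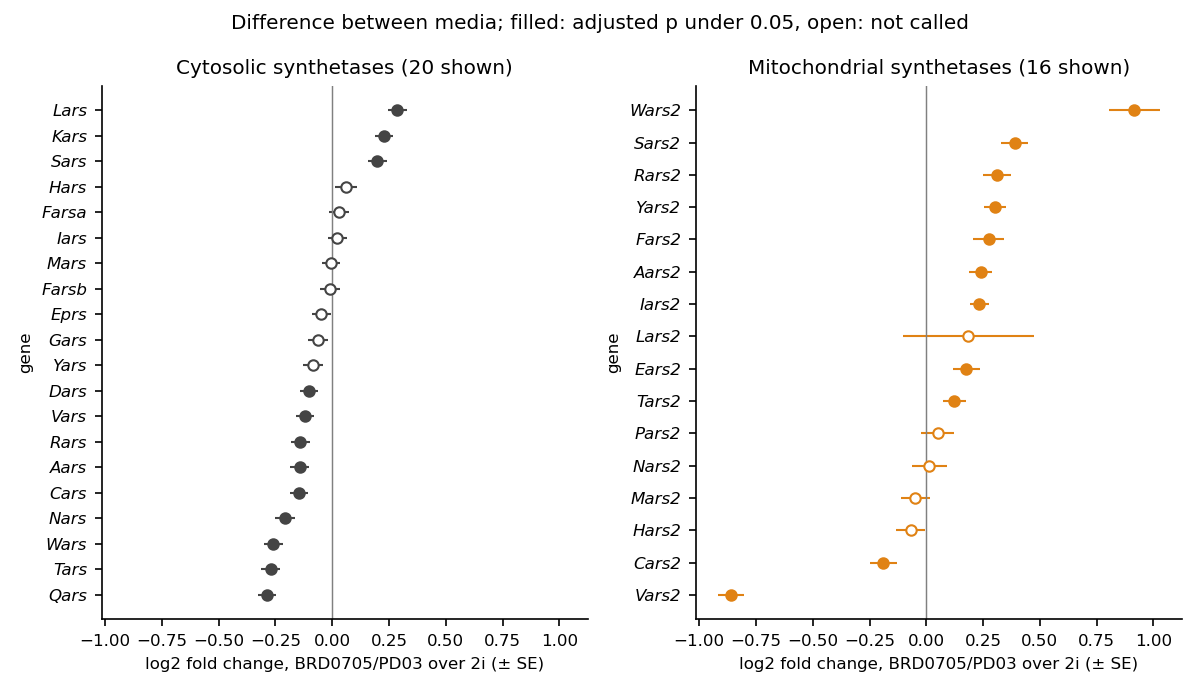
Log2 fold change of BRD0705/PD03 over 2i (x axis, ± SE, 3 libraries per group) for 20 cytosolic (left) and 16 mitochondrial (right) synthetase genes (y axis); filled points passed an adjusted p under 0.05. Most mitochondrial points lie right of 0, Wars2 and Vars2 stand far out at 0.92 and -0.86, and cytosolic points lie between -0.29 and 0.29.

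Depth and markers of other cell types were compared across the libraries. Libraries held 16968959 to 51180228 counts, and a member's count in a library ran from 61 to 38503, lowest for Wars2. ESC markers were present in every library, with the 10 summing to 3089 to 3188 CPM in BRD0705/PD03 and 3856 to 4143 CPM in 2i. Of these 10, 4 were higher (Zfp42, Utf1, Sall4 and Tdgf1) and 5 lower (Nanog, Dppa5a, Klf4, Esrrb and Pou5f1). For scale with this and the next marker counts, 30.1% of all genes tested were called higher and 31.4% lower. Of 20 fibroblast markers, which feeder cells would carry, 18 were higher and 0 lower with edgeR (also 0 lower at an unadjusted p under 0.05 and with DESeq2), and their sum was 1907 to 2573 CPM against 1454 to 1487 CPM. Markers of endoderm, trophoblast and neural cells summed to 28.4 to 28.9 CPM against 11.6 to 13.6 CPM. Of the 8 tested of those 10 markers, 4 were higher and 3 lower, and Pax6 (13.1 ± 0.242 against 0.363 ± 0.0969 CPM) and Neurod1 (6.73 ± 0.124 against 2.09 ± 0.202 CPM) made up most of the rise in the sum, while Gata3, Gata4 and Sox1 fell. In these 3 lists 0 markers were at 0 in any library. The part of these markers' cells in the synthetase differences was not tested. In bulk RNA, fewer cells of a type and less RNA per cell cannot be told apart.

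Between genes, levels were compared as CPM per kb of the transcript with the longest coding sequence. On that scale every cytosolic gene stood above every mitochondrial gene, in both media. In 2i the cytosolic genes ran from 43.96 (Hars, histidine) to 251 CPM per kb (Gars, glycine), and the mitochondrial genes from 0.918 (Wars2, tryptophan) to 25.4 CPM per kb (Tars2, threonine). In BRD0705/PD03 the ranges were 45.8 to 240.1 and 1.76 to 29 CPM per kb, with Yars2, for tyrosine, highest among the mitochondrial genes. Dividing by the length of all exons together left the compartments apart too, with lowest cytosolic values of 19.2 and 18.8 against highest mitochondrial values of 14.8 and 12.01. After Gars the order in 2i went on with Nars (asparagine, 204), Eprs (156), Sars (serine, 152) and Lars (leucine, 122 CPM per kb). Eprs and Sars overlapped in their library values in 2i, and in BRD0705/PD03 Sars stood above Eprs (175 and 151 CPM per kb). The order of genes depended on the length used. Per kb of all exons in 2i, Eprs stood at 42.4, below Lars (90.8) and Sars (55.3), and Gars was still highest (191). On that scale Rars2 was the highest mitochondrial gene in both media.

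**Figure D2:**
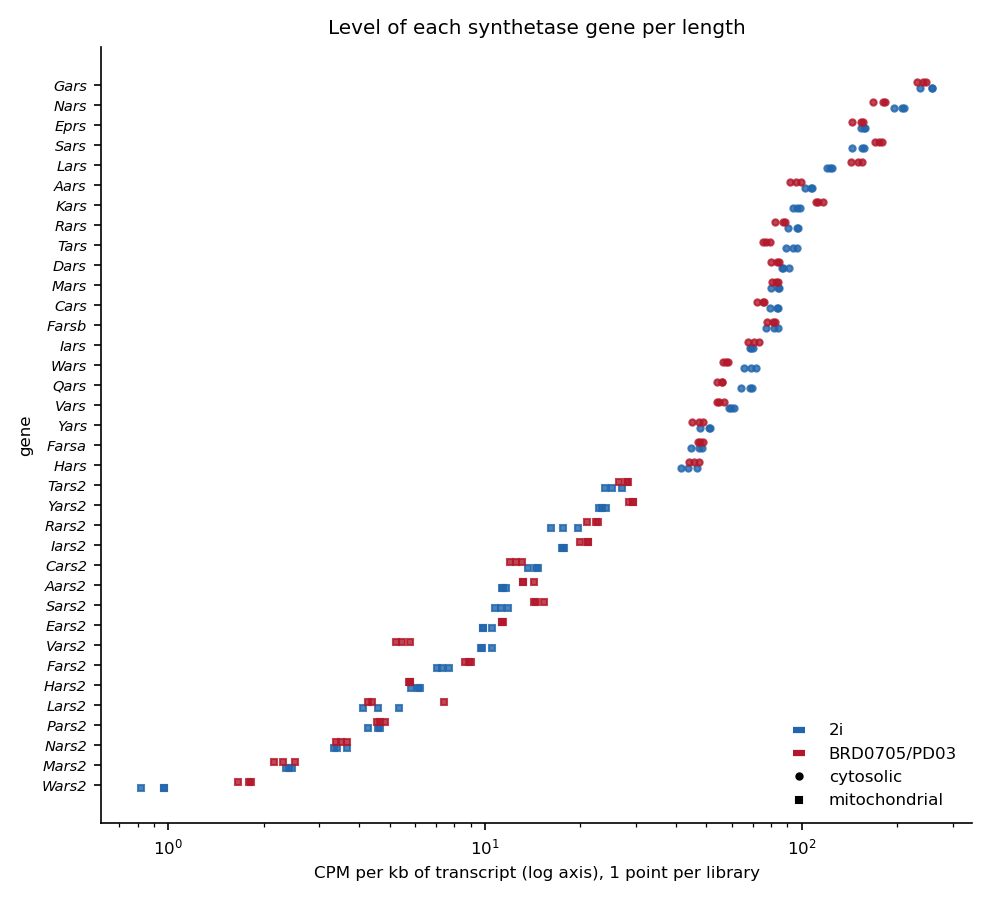
CPM per kb of transcript (x axis, log scale) for 36 synthetase genes (y axis, ordered by the mean in 2i), with 1 point per library in 2i (blue) and BRD0705/PD03 (red). In 2i the 20 cytosolic genes (circles) have means of 43.96 CPM per kb or more and the 16 mitochondrial genes drawn (squares) at 25.4 or below.

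Wars2, which charges mitochondrial tryptophan tRNA, was the gene that rose most and also the one at the lowest level. It stood at 8.04, 7.92 and 7.31 CPM in BRD0705/PD03 and 3.62, 4.27 and 4.26 CPM in 2i. The 3 BRD0705/PD03 libraries were all higher, by 1.89-fold (0.92 ± 0.11, adjusted p = 9.5e-07). Vars2, the mitochondrial valine enzyme, fell most. Its level was 25.6, 23.2 and 24.2 CPM in BRD0705/PD03 and 43.4, 42.9 and 46.4 CPM in 2i. No library of BRD0705/PD03 came near those of 2i, and the level was 1.82-fold higher in 2i (-0.86 ± 0.06, adjusted p = 1.6e-10). Both genes also passed a test against a fold of 1.5 (adjusted p = 0.00466 for Wars2 and 7.2e-05 for Vars2), and no other member did. Vars2 shares 8.52% of its exon bases with the antisense gene model Gm20483, which stood at 0.0817 ± 0.142 against 0.231 ± 0.0709 CPM.

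Among the other mitochondrial genes, 9 rose by smaller amounts. Sars2, the serine enzyme, stood at 27.1, 28.7 and 26.7 CPM in BRD0705/PD03 and 22.02, 21.05 and 20.05 CPM in 2i (0.39 ± 0.06, adjusted p = 2.0e-05). Its groups were well apart. Rars2, for arginine, stood at 39.3, 41.7 and 42.3 CPM in BRD0705/PD03 and 36.7, 32.9 and 30.3 CPM in 2i (0.31 ± 0.06, adjusted p = 3.3e-04). Its 2i libraries were spread more widely but still all lay lower. Yars2, for tyrosine, stood at 46.04, 46.2 and 44.7 CPM in BRD0705/PD03 and 36.02, 38 and 36.7 CPM in 2i (0.30 ± 0.05, adjusted p = 2.8e-05), with groups apart. Fars2 (phenylalanine, 0.28 ± 0.07, adjusted p = 0.00162), Aars2 (alanine, 0.24 ± 0.05, adjusted p = 4.4e-04) and Iars2 (isoleucine, 0.23 ± 0.04, adjusted p = 6.2e-05) rose by about as much. Iars2 shares 22.9% of its exon bases with Rab3gap2 on the opposite strand, and Rab3gap2, named for that overlap, was itself higher (84.4 ± 2.71 against 47.5 ± 0.452 CPM, 0.83 ± 0.04). The sources used here do not say whether counting took strand into account, so reads of the shared part cannot be assigned with certainty.

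Ears2 and Tars2 rose least. Ears2 charges glutamate and also loads the mitochondrial glutamine tRNA with glutamate, which an amidotransferase then turns into glutamine. It differed by 0.18 ± 0.06, adjusted p = 0.0164, and the call was lost with DESeq2 (0.101) and with libraries thinned to the smallest total (0.0775). Tars2, the threonine enzyme, differed by 0.12 ± 0.05, adjusted p = 0.0392 with groups that overlap. That call was lost without BRD0705/PD03 replicate 1 (adjusted p = 0.0811) or 2 (0.137), without 2i replicate 3 (0.093), with DESeq2 (0.104), after thinning (0.0612) and without genes of the sex chromosomes (0.0582).

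Cars2, for cysteine, was the other mitochondrial gene called lower. It stood at 24.9, 22.8 and 23.8 CPM in BRD0705/PD03 and 27.5, 28.01 and 25.9 CPM in 2i (-0.19 ± 0.06, adjusted p = 0.0111). The groups lay close together without overlapping. Its call was lost without BRD0705/PD03 replicate 2 (adjusted p = 0.0527) or 2i replicate 2 (0.088), and with upper-quartile scaling (0.0883), DESeq2 (0.0889) or thinning (0.0738). The remaining 5 mitochondrial genes did not pass: Hars2 (histidine, -0.07 ± 0.06), Mars2 (methionine, -0.05 ± 0.06), Nars2 (asparagine, 0.01 ± 0.08), Pars2 (proline, 0.05 ± 0.07) and Lars2 (leucine, 0.19 ± 0.29, adjusted p = 0.626). Lars2 stood at 17.1, 16.6 and 28.99 CPM in BRD0705/PD03 and 16.02, 20.9 and 17.9 CPM in 2i. The third BRD0705/PD03 library was far above the other two, and without it the log2 fold change was -0.13 (adjusted p = 0.259).

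**Figure D3:**
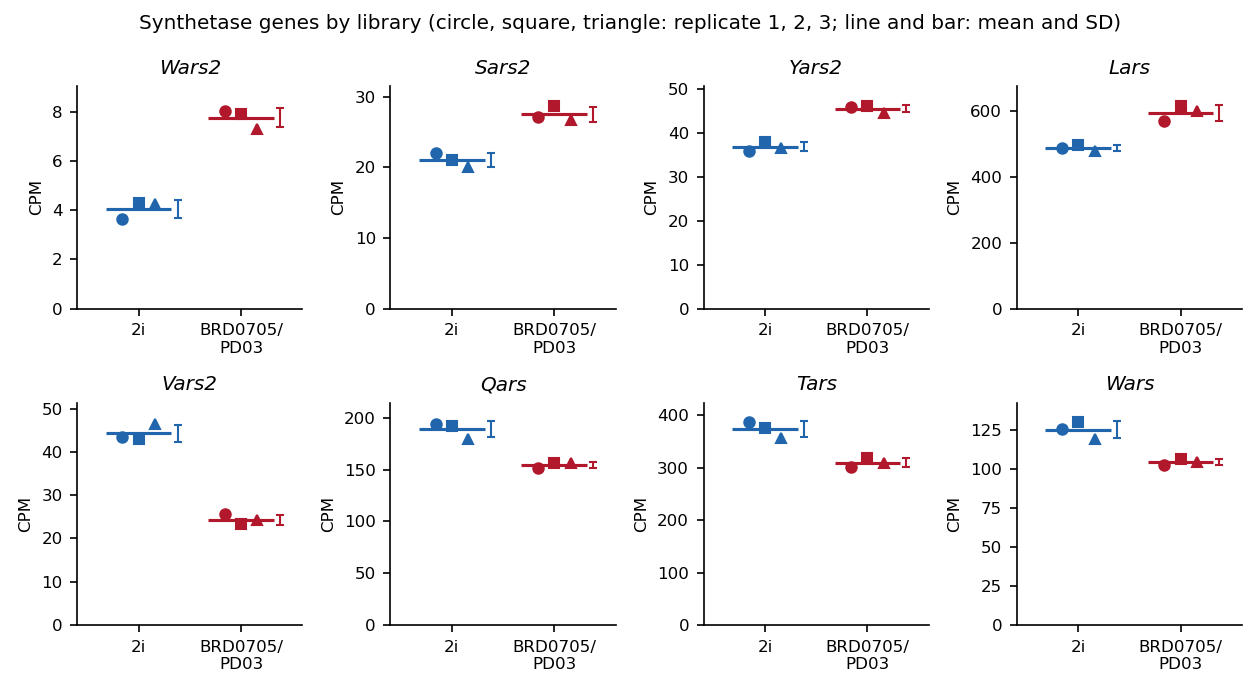
CPM (y axis, from 0) of 8 synthetase genes in each library of 2i (blue) and BRD0705/PD03 (red), with the group mean (line) and SD (bar), n = 3. The upper genes are higher in BRD0705/PD03 and the lower ones are lower, and in none of the 8 do the groups overlap.

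Lars, the cytosolic leucine enzyme, which also takes part in leucine sensing by mTORC1, rose most among the cytosolic genes. Its level was 569, 617 and 599.7 CPM in BRD0705/PD03 and 488, 496 and 478 CPM in 2i. All 3 libraries of BRD0705/PD03 were higher, by 1.22-fold (0.29 ± 0.04, adjusted p = 6.8e-06). Kars, the lysine enzyme of both compartments, stood at 242, 255 and 246 CPM in BRD0705/PD03 and 216, 212 and 206 CPM in 2i (0.23 ± 0.04, adjusted p = 5.6e-05). Its groups did not overlap. Sars, for serine, also rose (326 ± 8.904 against 284 ± 13.01 CPM, 0.20 ± 0.04, adjusted p = 5.1e-04). Serine was thus the amino acid for which both enzymes were called higher.

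Qars, the glutamine enzyme, fell most among the cytosolic genes. It stood at 151, 156 and 156 CPM in BRD0705/PD03 and 194, 192 and 179.9 CPM in 2i, 1.22-fold higher in 2i (-0.29 ± 0.04, adjusted p = 6.3e-06). Tars, for threonine, stood at 302, 318 and 309 CPM in BRD0705/PD03 and 387, 376 and 357 CPM in 2i (-0.27 ± 0.04, adjusted p = 1.6e-05). In both, every BRD0705/PD03 library was below every 2i library. The tryptophan enzyme gene Wars stood at 103, 107 and 105 CPM in BRD0705/PD03 and 126, 131 and 119.6 CPM in 2i (-0.26 ± 0.04, adjusted p = 3.2e-05). Nars, for asparagine, stood at 459.6, 504 and 495 CPM in BRD0705/PD03 and 576, 569.8 and 537 CPM in 2i (-0.21 ± 0.04, adjusted p = 5.2e-04). Groups did not overlap for either.

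Another 5 cytosolic genes were called lower by small amounts, Cars (cysteine, -0.15 ± 0.04), Aars (alanine, -0.14 ± 0.04), Rars (arginine, -0.14 ± 0.04), Vars (valine, -0.12 ± 0.04) and Dars (aspartate, -0.10 ± 0.04). Aars shares 14.3% of its exon bases with Exosc6 on the same strand, which is listed at 0 in all libraries. Rars lost its call with upper-quartile scaling (adjusted p = 0.0652). Vars lost it with that scaling (0.136), with no filter (0.107) and without BRD0705/PD03 replicate 3 (0.058) or 2i replicate 2 (0.0504). Dars, at adjusted p = 0.0364, lost it without BRD0705/PD03 replicate 1 (0.122) or 3 (0.085) and without 2i replicate 1 (0.0641) or 2 (0.184), and under 6 other scalings, filters and tools, with adjusted p from 0.0519 to 0.348.

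The remaining 8 cytosolic genes did not pass the test. Eprs, whose protein charges both glutamate and proline, stood at 705, 766 and 756 CPM in BRD0705/PD03 and 778, 768 and 756 CPM in 2i (-0.05 ± 0.04, adjusted p = 0.339). The catalytic and the other subunit of phenylalanyl-tRNA synthetase, Farsa and Farsb, differed by 0.03 ± 0.04, adjusted p = 0.57 and -0.01 ± 0.04, adjusted p = 0.863. Their groups overlapped, as those of Eprs did. Farsa stood at 86.03, 88.8 and 86.99 CPM in BRD0705/PD03 and 86.3, 88.3 and 81.4 CPM in 2i. Farsb stood at 158, 167 and 166 CPM in BRD0705/PD03 and 166, 171 and 156 CPM in 2i. Per kb, Farsb was at a higher level than Farsa in both media (80.2 and 47.8 CPM per kb in BRD0705/PD03). In the enzyme itself the subunits stand in equal number. Gars, the glycine enzyme of both compartments, stood at 551, 588 and 576 CPM in BRD0705/PD03 and 613, 615 and 564 CPM in 2i (-0.06 ± 0.04, adjusted p = 0.227). The third 2i library was the lowest of its group, and without it Gars was called lower (-0.10, adjusted p = 0.0233). Yars, for tyrosine (-0.08 ± 0.04, adjusted p = 0.101), was likewise called without that library (adjusted p = 0.0179). Hars (histidine, 0.06 ± 0.05), Iars (isoleucine, 0.02 ± 0.04) and Mars (methionine, -0.01 ± 0.04) were within 0.10 of no difference with all libraries and the scaling used here. Hars reached 0.13 with upper-quartile scaling and 0.11 without 2i replicate 1. With upper-quartile scaling Farsa (adjusted p = 0.0366), Hars (0.0157) and Iars (0.0253) were called higher. Hars and Hars2 start next to each other on opposite strands and share 195 exon bases, and neither was called.

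For alanine, arginine, threonine and tryptophan the cytosolic and the mitochondrial gene were called in opposite directions. Each time the cytosolic gene was lower and the mitochondrial gene higher, though the calls of Rars and Tars2 were lost under the settings given above. Both genes were lower for cysteine and valine, though the calls of Cars2 and Vars were lost under the settings given above. Both were higher for serine, and in most other pairs 1 or both genes were not called. The counts of Wars and Wars2 show the largest shift: the ratio of Wars to Wars2 counts was 12.8, 13.5 and 14.3 in BRD0705/PD03 and 34.8, 30.6 and 28.1 in 2i. For valine the ratio of Vars to Vars2 was 8.74, 10.1 and 9.401 in BRD0705/PD03 and 5.69, 5.903 and 5.25 in 2i. These ratios need no scaling between libraries, and in both cases the groups did not overlap.

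**Figure D4:**
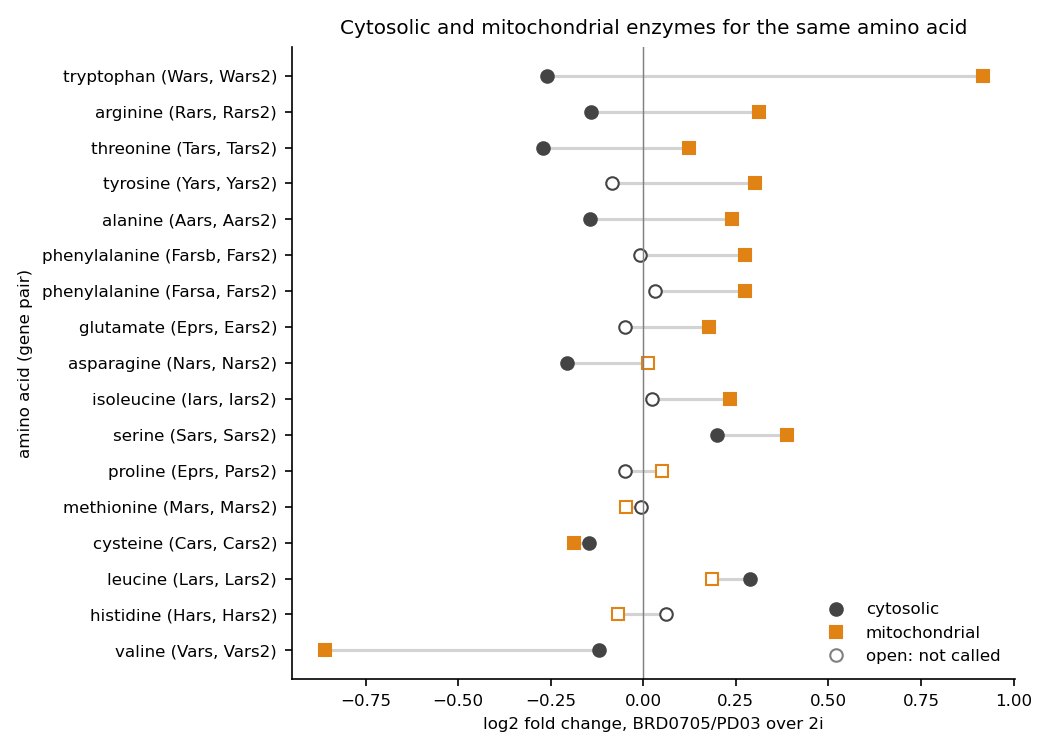
Log2 fold change of BRD0705/PD03 over 2i (x axis) for the cytosolic (grey circles) and mitochondrial (orange squares) gene of 17 gene pairs for the same amino acid (y axis), with filled symbols for genes that passed an adjusted p under 0.05. Tryptophan has the widest gap with the mitochondrial gene higher, from -0.26 to 0.92, and valine the widest with it lower, from -0.12 to -0.86.

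The 8 cytosolic enzymes of the multisynthetase complex (Dars, Eprs, Iars, Kars, Lars, Mars, Qars and Rars) did not move together. Of these 2 were higher and 3 lower, with a median of -0.03, beside 30.1% of all genes tested called higher and 31.4% lower. The cytosolic genes that rose and fell most, Lars and Qars, are both among these enzymes. The ratio of Lars to Qars counts was 3.76, 3.94 and 3.84 in BRD0705/PD03 and 2.51, 2.58 and 2.66 in 2i, with no overlap. Of the scaffold genes, Eef1e1 fell (64.01 ± 2.896 against 82.1 ± 1.102 CPM, -0.36 ± 0.04, adjusted p = 1.3e-06). Aimp1 (0.07 ± 0.05, adjusted p = 0.182) and Aimp2 (0.13 ± 0.07, adjusted p = 0.141) did not pass, but were called higher with upper-quartile scaling (adjusted p = 0.00581 and 0.0294). Aimp1 was also called without BRD0705/PD03 replicate 1 (0.0259) and for genes averaging 1 CPM or more (0.0479). Aimp2 was also called without 2i replicate 1 (0.0383) and after thinning (0.0488).

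Relatives of the synthetases, and enzymes that correct or extend their products, included some wider differences. Of 10 such genes 3 were higher and 6 lower, with a median of -0.32, where 61.4% of all genes tested were called. Their median size was 0.33, beside 0.18 for the synthetases, 0.40 for all genes tested and 0.31 for genes averaging 5 CPM or more. Dtd1, which removes D-amino acids wrongly joined to tRNA, stood at 19.1, 19.2 and 18.7 CPM in BRD0705/PD03 and 1.01, 1.197 and 1.74 CPM in 2i. The gene was low in all 2i libraries and 14.4-fold higher in BRD0705/PD03 (3.85 ± 0.12, adjusted p = 4.8e-15). Aarsd1, a relative of the alanine enzyme's editing domain, fell (49.1 ± 2.15 against 73.4 ± 1.94 CPM, -0.58 ± 0.05, adjusted p = 3.2e-09). Tarsl2, a cytosolic threonine enzyme that the naming rule does not take in, fell as well (16.1 ± 1.22 against 23.98 ± 1.09 CPM, -0.57 ± 0.07, adjusted p = 8.1e-07). Tars and Tarsl2 were therefore both lower.

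Among 18 tRNA processing genes 7 were higher and 5 lower (median -0.01), where 30.1% of all genes tested were called higher and 31.4% lower. Adat2, part of the deaminase that makes inosine in the anticodon, stood at 8.597, 8.17 and 8.85 CPM in BRD0705/PD03 and 20.7, 22.9 and 23.5 CPM in 2i (-1.39 ± 0.08, adjusted p = 1.1e-11). No BRD0705/PD03 library reached the level of any in 2i. Pus1, a pseudouridine synthase, also fell (26.9 ± 1.76 against 41.8 ± 2.01 CPM, -0.64 ± 0.06), and Tsen34, part of the endonuclease that removes tRNA introns, rose (64.1 ± 0.7303 against 45.6 ± 2.56 CPM, 0.49 ± 0.05). Of 8 cytosolic elongation and termination factor genes 3 rose, Gspt1 (0.25 ± 0.04), Eif5a (0.19 ± 0.04) and Eef1b2 (0.22 ± 0.06), and 0 fell with edgeR, though Eef1a1, the elongation factor that brings charged tRNA to the ribosome, passed at an unadjusted p under 0.05 (-0.11 ± 0.05, adjusted p = 0.0564) and was called lower with DESeq2.

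Mitochondrial translation factors were mixed. Of 13 genes 4 were higher and 6 lower (median -0.06), beside 30.1% of all genes tested called higher and 31.4% lower. The elongation factor gene Tsfm (23.1 ± 0.657 against 31.8 ± 1.55 CPM, -0.46 ± 0.06, adjusted p = 1.5e-06) and the initiation factor gene Mtif3 (12.4 ± 0.697 against 17.4 ± 1.18 CPM, -0.49 ± 0.08, adjusted p = 1.9e-05) fell. Qrsl1, a subunit of the amidotransferase that completes mitochondrial glutamine tRNA, rose (22.7 ± 0.641 against 16.4 ± 0.928 CPM, 0.46 ± 0.07, adjusted p = 7.6e-06). Its partner Gatb, named after its value was seen, rose too (15.4 ± 0.531 against 10.9 ± 0.754 CPM, 0.49 ± 0.08), while the third subunit gene, Gatc, did not pass (0.09 ± 0.11, adjusted p = 0.514).

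Genes of the amino acid response, which ATF4 drives, were mixed. Of 23 tested 6 were higher and 10 lower (median -0.13), beside 30.1% of all genes tested called higher and 31.4% lower. Atf4 stood at 448, 487 and 466 CPM in BRD0705/PD03 and 427, 444 and 410.2 CPM in 2i (0.13 ± 0.04, adjusted p = 0.0145), a small rise that was lost without BRD0705/PD03 replicate 2 (adjusted p = 0.0937). Asns, asparagine synthetase, which makes the amino acid and is no tRNA synthetase, stood at 418, 474 and 474 CPM in BRD0705/PD03 and 962, 983 and 952 CPM in 2i (-1.08 ± 0.05, adjusted p = 6.7e-13). Asns was thus 2.12-fold higher in 2i. The transporter gene Slc7a1 fell (111 ± 3.78 against 198 ± 8.902 CPM, -0.84 ± 0.04) and Slc38a2, another amino acid transporter gene, rose (700.4 ± 17.1 against 361 ± 7.12 CPM, 0.96 ± 0.04). The CARE letters stood in any listed promoter of 7 of the 23 response genes that had one, Asns among them. For the synthetases only the first listed promoter was searched, so the counts are not alike. Of the 12 cytosolic synthetases often described as ATF4 targets (Aars, Cars, Eprs, Gars, Iars, Lars, Mars, Nars, Sars, Tars, Wars and Yars), 2 were higher and 5 lower (median -0.07), and of the other 8 cytosolic genes 1 was higher and 4 lower (median -0.06). The 5 with CARE letters in the searched window differed by -0.14 ± 0.04 (Aars), -0.27 ± 0.04 (Tars), -0.06 ± 0.04 (Gars), -0.08 ± 0.04 (Yars) and 0.02 ± 0.04 (Iars), of which Aars and Tars passed the test. Cars, Hars, Lars, Nars, Rars, Vars and Wars had no promoter matched by symbol, so whether they hold the letters was not searched.

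**Figure D5:**
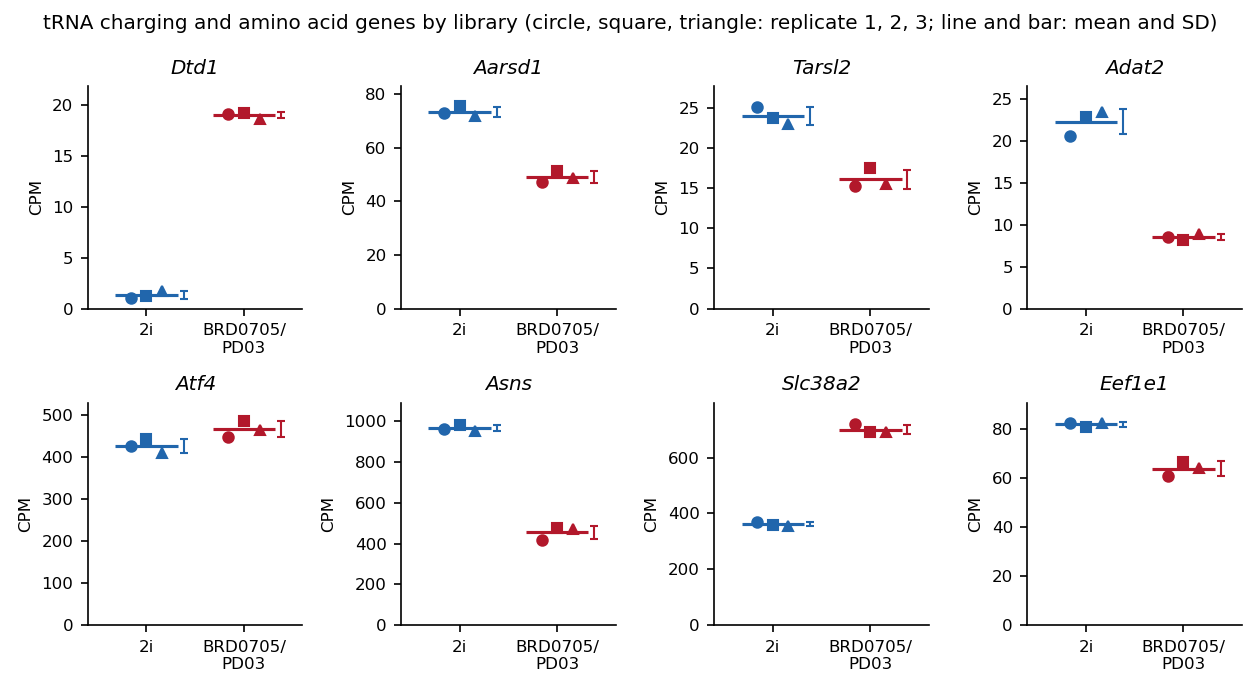
CPM (y axis, from 0) of 8 genes around tRNA charging and amino acid supply in each library of 2i (blue) and BRD0705/PD03 (red), with the group mean (line) and SD (bar), n = 3. Dtd1 rises from 1.31 to 19.02 CPM, Adat2 and Asns are far lower in BRD0705/PD03, and Atf4 differs little.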

How the data were processed

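RNA-seq of 6 mouse ESC libraries was used, 3 per medium. The deposited values are estimated counts per gene symbol, in whole numbers and left unscaled by the authors. The submitters' processing notes name Salmon and mm10, and for the annotation, strand setting and Salmon version nothing is stated in the sources used here. Groups came from the sample titles. The labels do not say whether libraries come from separate cultures; p-values measure only their spread, which may be technical. No pair of libraries of the same medium matched within sampling noise (chi-square per degree of freedom 2.77 to 9.84, genes with at least 20 counts). Pairs across the media were not checked. Totals ran from 16968959 to 51180228.

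The test was edgeR 4.0.16 under R 4.3.3 (quasi-likelihood, filterByExpr, TMM, robust, group only), with Benjamini-Hochberg adjustment over 20422 genes and a threshold of 0.05, two-sided. SE is the log2 fold change over the square root of F. CPM use effective library sizes. Coordinates, exons and transcript lengths came from GENCODE M21 (GRCm38). The steps were tested on simulated data. Alternatives were DESeq2 1.42.0, other scalings and filters, a replicate block, thinning, a fold of 1.5, no sex-chromosome genes and leaving out each library. Values of 1 mitochondrial member, which stays in all counts and medians, are not reported here. The members, lists and tests were chosen with earlier results of these data known. Otherwise, library values were given for the 6 highest and 6 lowest called members whose groups do not overlap, and for 6 set members. Those of Lars2 were given outside this rule. From each other list up to 3 called genes with the smallest p were named, with Atf4, Asns and the scaffold genes; library values among these were given for a few.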

Additional observations from a re-analysis of the deposited data

How the results depend on the processing

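Over the 37 synthetase genes and 15 alternatives, 475 of 555 comparisons kept direction and side of the threshold. Against a fold of 1.5, 1 member was higher and 1 lower, both mitochondrial (1 and 1), with 0 and 0 cytosolic in edgeR's glmTreat (0 at an unadjusted p under 0.05; against no change 12 were called, and 11 with DESeq2), and 2 higher and 5 lower in the related lists, where 23 and 28 were called against no change. Upper-quartile scaling, which moved the median of all genes by 0.07, gave 7 members lower, 6 cytosolic higher and 1 mitochondrial lower, with medians of 0.0795 (all), -0.00884 (cytosolic) and 0.25 (mitochondrial). DESeq2 and thinning each left 1 mitochondrial gene lower. The mitochondrial median was 0.21 with no filter, 0.21 for genes averaging 1 CPM or more and 0.25 after thinning. Leaving out a library gave 1 to 2 mitochondrial genes lower, 9 to 10 higher, 7 to 11 cytosolic lower, 3 cytosolic higher each time, and a mitochondrial median of 0.17 to 0.26. The cause of these shifts was not tested. After thinning, which equalised depth, Cars2, Ears2, Tars2 and Dars lost their calls, and Wars2, with as few as 61 counts in a library, kept its call.

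Reversals of direction were seen only in members that were not called. With upper-quartile scaling they were Eprs (0.0168), Farsb (0.056), Gars (0.00183), Mars (0.0592) and Mars2 (0.0176). With no filter they were Farsb (0.0126) and Mars (0.0158), for genes averaging 1 CPM or more Farsb (0.0134) and Mars (0.0168), and after thinning Farsb (0.0188), Mars (0.00903) and Nars2 (-0.0327). Mars also turned with median-ratio factors (0.00229) and DESeq2 (0.000695). Leaving out each library gave log2 fold changes of Farsb -0.0379 to 0.0364, Iars -0.00646 to 0.0556, Lars2 -0.13 to 0.32, Mars -0.0241 to 0.0252, Mars2 -0.11 to 0.00824 and Nars2 -0.016 to 0.0754.

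With the replicate number as a block, 13 members were higher and 11 lower, and all 37 kept their call. Deviations of libraries with the same number correlated at -0.00822, 0.034 and -0.0357, so the numbers do not show a pairing, and not every library correlated best with its own number.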

Other observations

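Class I and class II synthetases, whose catalytic domains are unrelated in fold, were counted apart. Of 9 cytosolic class I genes 1 was higher and 5 lower (median -0.12), and of 10 cytosolic class II genes 2 were higher and 4 lower (median -0.04). Among mitochondrial genes the counts were 5 higher and 2 lower of 9 in class I (median 0.19) and 5 and 0 of 8 in class II with edgeR (median 0.18). Beside these, 33.5% of genes averaging 5 CPM or more were called higher and 38.9% lower.

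The ratio of Asns to Atf4 counts, which needs no scaling, was 0.931, 0.973 and 1.02 in BRD0705/PD03 and 2.26, 2.22 and 2.32 in 2i. Sepsecs (0.26 ± 0.07, adjusted p = 0.00406) rose while Pstk (-0.42 ± 0.08, adjusted p = 2.7e-04) and Eefsec (-0.33 ± 0.06, adjusted p = 4.9e-05) fell, 3 genes of the route that makes and delivers selenocysteine tRNA, all named after their values were seen.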
